A study of Mus musculus with 24 samples.

Results

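The Hox genes A to D were followed in the anterior heart field (AHF) of mouse embryos that had lost *Tbx1*, *β-catenin*, or *Tbx1* together with 1 *β-catenin* allele. Members were all genes whose symbol is Hoxa, Hoxb, Hoxc or Hoxd and a number, chosen by name and not by value. They are 37 of the 19938 genes that the arrays measure through probe sets with 1 gene symbol, with 10 in cluster A and 9 each in clusters B, C and D, and each is read by 1 probe set. By paralogue number, which gives a gene's place within its cluster, 7 genes belong to groups 1 to 3, 14 to groups 4 to 8 and 16 to groups 9 to 13.

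Tissue was microdissected at E9.5, from embryos with 19 to 21 somite pairs, as the distal pharyngeal apparatus without the heart tube, and embryos were pooled for each array. Cre recombinase was driven by Mef2c-AHF-Cre, which is active in the AHF, the second heart field (SHF) mesoderm that builds the right ventricle and outflow tract. Floxed alleles in the rest of the dissected tissue were therefore kept. *Tbx1 LOF* embryos were Mef2c-AHF-Cre/+;Tbx1 f/- or f/f, *β-cat LOF* embryos were Mef2c-AHF-Cre/+;β-catenin f/f, and rescue embryos had the *Tbx1* loss with 1 floxed β-catenin allele. In embryos with a Tbx1 - allele, that copy was missing from all cells, also outside the Cre domain. Each of these 3 groups had 4 arrays and a control group of its own with 4 more, 24 arrays in all. The methods describe the controls as embryos without Cre (Tbx1 f/+, β-catenin f/+, or both), whereas the labels give wild type and Mef2c-AHF-Cre/+;Tbx1 f/+ littermates, so the genotype of the controls is not settled here. Nothing shows that the pools of a group came from separate litters, and the p-values measure the spread between these arrays.

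Hox genes encode homeodomain transcription factors that give cells their position along the head to tail axis. They lie in 4 clusters, and in each the order of the genes along the chromosome follows the order of their anterior limits in the embryo. Genes with low numbers reach into the hindbrain and pharyngeal region, where retinoic acid, made in mesoderm by the enzyme *Aldh1a2*, sets how far forward they are expressed. Genes with high numbers are used in the trunk, limb and tail, where Cdx factors switch them on. In the heart fields, anterior Hox genes mark SHF cells that later join the outflow tract and the atrial pole.

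The windows before the start sites are shown for 6 members on which the results turn. *Hoxa5*, *Hoxb4* and *Hoxc4* varied together between arrays, and *Hoxd4* varied in part with *Hoxc4* but little with *Hoxa5* or *Hoxb4*. *Hoxa7* is the member whose *β-cat LOF* and control arrays did not overlap, and *Hoxd10* had the largest departure of a single array. RefSeq windows on GRCm38.p6 were found for 21 of the 37 genes. Each line holds the 250 bases before the start, 5′ to 3′ on the gene's strand. Capitals mark AGGTCA, the core motif of nuclear receptors such as the retinoic acid receptors, TTTATG, the core of the Cdx motif, and CCAAT, the CCAAT box. All were searched on both strands, so AGGTCA may also read TGACCT in a line, the Cdx core may read CATAAA, and the box may read ATTGG. In the windows printed, no match of 1 motif overlaps a match of another.
Hoxa5 (chr6:52204588-52204837, minus strand): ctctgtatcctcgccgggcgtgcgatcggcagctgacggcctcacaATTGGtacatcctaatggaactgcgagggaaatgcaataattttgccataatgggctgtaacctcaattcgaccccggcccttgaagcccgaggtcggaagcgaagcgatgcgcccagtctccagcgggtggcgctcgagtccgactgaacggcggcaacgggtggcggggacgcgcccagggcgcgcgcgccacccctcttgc
Hoxb4 (chr11:96318017-96318266, plus strand): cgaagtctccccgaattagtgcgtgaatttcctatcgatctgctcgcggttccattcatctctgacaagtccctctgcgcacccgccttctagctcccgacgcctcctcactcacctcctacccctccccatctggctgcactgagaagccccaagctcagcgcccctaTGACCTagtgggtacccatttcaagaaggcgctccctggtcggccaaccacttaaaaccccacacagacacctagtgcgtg
Hoxc4 (chr15:103034145-103034394, plus strand): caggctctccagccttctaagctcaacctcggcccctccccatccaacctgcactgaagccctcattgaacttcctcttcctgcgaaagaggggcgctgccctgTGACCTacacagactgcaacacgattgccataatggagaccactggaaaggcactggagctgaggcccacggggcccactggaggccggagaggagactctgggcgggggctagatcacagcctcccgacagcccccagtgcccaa
Hoxd4 (chr2:74721728-74721977, plus strand): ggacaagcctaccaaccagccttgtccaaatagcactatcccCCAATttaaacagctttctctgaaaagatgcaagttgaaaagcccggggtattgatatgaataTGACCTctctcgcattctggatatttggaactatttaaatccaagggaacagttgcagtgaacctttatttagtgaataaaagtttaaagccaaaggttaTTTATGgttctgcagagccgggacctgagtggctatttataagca
Hoxa7 (chr6:52218574-52218823, minus strand): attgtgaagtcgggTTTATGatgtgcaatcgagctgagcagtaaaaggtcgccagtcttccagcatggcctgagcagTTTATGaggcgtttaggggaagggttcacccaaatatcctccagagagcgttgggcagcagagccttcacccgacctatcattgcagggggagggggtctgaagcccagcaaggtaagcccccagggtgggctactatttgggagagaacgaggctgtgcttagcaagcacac
Hoxd10 (chr2:74691641-74691890, plus strand): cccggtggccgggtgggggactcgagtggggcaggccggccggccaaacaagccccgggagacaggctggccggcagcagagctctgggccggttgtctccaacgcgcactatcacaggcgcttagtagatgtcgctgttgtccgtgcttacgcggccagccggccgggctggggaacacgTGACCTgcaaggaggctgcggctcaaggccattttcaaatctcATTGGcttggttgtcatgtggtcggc
AGGTCA was found before 6 of the 21 genes (*Hoxb4*, *Hoxc4*, *Hoxd3*, *Hoxd4*, *Hoxd8* and *Hoxd10*) and in 14.0% of 32851 windows of this length before all genes. TTTATG was found before 4 (*Hoxa7*, *Hoxd3*, *Hoxd4* and *Hoxd11*), against 10.8% of all windows, and CCAAT before 13, against 33.8%. *Hoxd3* and *Hoxd4* were the members that held both AGGTCA and TTTATG. In *Hoxd3* these matches overlap, at 161 and 165 bases before the start, and in *Hoxd4* they lie apart, at 145 and 45. A match describes the letters of the window and says nothing of binding.

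Array medians lay between 7.998 and 8.143 on the log2 scale. Replicate 1 of the *Tbx1 LOF* controls had all genes higher by a median of 0.09 than the rest of its group, with 11.9% of them more than 0.25 above and 1.28% more than 0.25 below. Without it the Hox median in *Tbx1 LOF* was 0.0040 against -0.01 with it. The AHF label was checked against mesodermal genes of this field: in the controls of the β-cat experiment the mean log2 value was 11.57 for *Eya1* and 10.69 for *Isl1*, which encode factors of heart progenitors. Heart tube markers were also present, and their mean score relative to 24 arrays spanned 0.13 to 2.28 in these controls and -0.43 to 0.07 in *β-cat LOF*. *Tbx1* was lower in *Tbx1 LOF*, with values of 10.98 to 11.43 against 11.77 to 11.99 (log2 fold change -0.64, limma adjusted p = 0.00626). In rescue the *Tbx1* difference was -0.31, with 11.39 to 11.51 against 11.58 to 11.95. *Ctnnb1*, which encodes β-catenin, lay at 13.09 to 13.27 in *β-cat LOF* and 13.19 to 13.23 in its controls, and where its probes lie relative to the deleted part was not examined, so this gene checks nothing. No gene had an adjusted p under 0.05 in *β-cat LOF* or rescue (0% of 19938 in each), and 6 genes (0.0301%) had one in *Tbx1 LOF*, or 0 with the replicate number as a block.

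The first question was which part of the axis the tissue represents, read from the levels in the 12 control arrays. An array value depends on the probes as well as on the RNA, so genes were not ranked against each other. Each was instead set against 1015 olfactory receptor genes, which are silent in most embryonic tissue and give the values seen with little or no specific RNA (median 5.53, 95% of them under 7.28), a reference chosen after values were seen. Of the 37 Hox genes, 20 had a mean over 24 arrays above that limit. All 7 genes of paralogue groups 1 to 3 were above it, as were 9 of the 14 in groups 4 to 8 and 4 of the 16 in groups 9 to 13. The 9 in the middle were the 4 genes of group 4, the 3 of group 5 and the 2 of group 7. None of the 3 genes of group 6 or the 2 of group 8 was above it.

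Among the low paralogues, *Hoxb1*, an early gene of the SHF and of rhombomere 4, ranged from 10.91 to 11.66 over the controls with a median of 11.26. *Hoxb2* and *Hoxa2*, which pattern the hindbrain and the second pharyngeal arch, had medians of 11.63 (11.06 to 11.77) and 10.40 (9.99 to 10.63). Of the paralogues of group 3, which act in the more caudal arches and their arteries, *Hoxb3* had a median of 10.60, *Hoxd3* of 8.92 and *Hoxa3* of 8.24. *Hoxd1*, an anterior gene of cluster D, had a median of 7.27 and a range of 7.19 to 7.54 that crosses the limit set by the receptor genes, with its median just under it. In group 4 the control medians were 9.20 for *Hoxa4*, 9.06 for *Hoxb4*, 8.22 for *Hoxc4* and 7.77 for *Hoxd4*, and in group 5 they were 8.54 for *Hoxa5*, 8.28 for *Hoxb5* and 8.65 for *Hoxc5*. These 7 genes are used in the neck and anterior trunk, and their lowest control value was 7.59, above the limit in every control array.

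Beyond group 5 most members lay under that limit. *Hoxa6*, *Hoxb6* and *Hoxc6* had control medians of 7.16, 7.10 and 6.38, and *Hoxc8* and *Hoxd8* of 7.12 and 6.25. *Hoxa7* and *Hoxb7*, at 7.39 and 7.58, lay a little above it. The members of groups 9 to 13 that passed it were *Hoxb9* (median 8.24), *Hoxd9* (7.34), *Hoxd10* (7.51) and *Hoxd11* (7.49). All 4 genes of group 13, which act in the limb tips and tail, had medians of 7.05 to 7.12, under the limit. The spread of Hox genes between arrays of a group was wider than usual, with a residual SD whose median was 0.155 for the members and 0.112 for all genes.

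**Figure D1:**
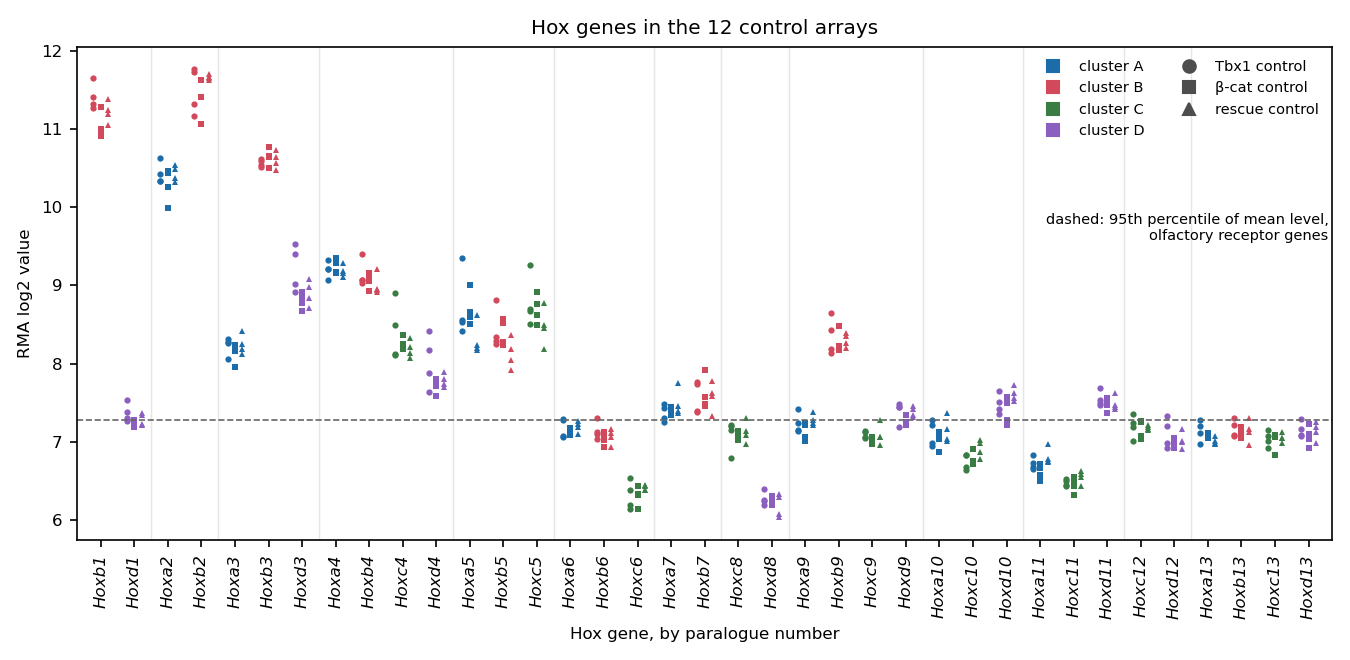
RMA log2 values of the 37 Hox genes on the 12 control arrays, ordered by paralogue number. Points are arrays, and the dashed line at 7.28 is the level under which 95% of the olfactory receptor genes lie. Groups 1 to 5 lie mostly above the line, and 5 genes of groups 6 and 8 lie below it in their means.

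Control groups of the 3 experiments were compared with limma's F-test, which reads differences between experiments, since genotype and experiment cannot be told apart. No Hox gene passed at an adjusted p under 0.05, against 68 genes (0.341%) over the whole table. At an unadjusted p under 0.05 the test called 2 Hox genes, *Hoxb1* and *Hoxd3*, a smaller share of the members than the 13.6% of all genes. The smallest adjusted p was 0.198, for *Hoxb1*. *Hoxb1* read 11.41, 11.66, 11.27 and 11.33 in the *Tbx1 LOF* controls, 11.28, 10.91, 10.98 and 11.01 in the *β-cat LOF* controls, and 11.20, 11.25, 11.38 and 11.06 in the rescue controls. The group means were 11.42 ± 0.171, 11.05 ± 0.163 and 11.22 ± 0.135 (SD, n = 4 each), and the first 2 groups overlapped only through 1 β-cat control at 11.28. *Hoxd3* read 9.40, 9.53, 9.02 and 8.92 in the *Tbx1 LOF* controls, against 8.67 to 8.92 in the *β-cat LOF* and 8.72 to 9.08 in the rescue controls. The 2 high values, replicates 1 and 2, set the *Tbx1 LOF* control mean of 9.22 apart from 8.80 and 8.90.

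*Hoxa5*, *Hoxb5* and *Hoxc5*, whose products act in the lung, neck and shoulder, followed in the order of this test with unadjusted p-values of 0.0517, 0.0571 and 0.107. *Hoxa5* read 8.53, 9.35, 8.42 and 8.56 in the *Tbx1 LOF* controls, 8.66, 8.50, 9.01 and 8.60 in the *β-cat LOF* controls, and 8.63, 8.23, 8.18 and 8.20 in the rescue controls. *Hoxb5* read 8.34, 8.81, 8.29 and 8.25, then 8.24, 8.28, 8.57 and 8.52, then 8.37, 8.19, 8.05 and 7.92 in the same order of groups. *Hoxc5* read 8.71, 9.27, 8.51 and 8.67, then 8.77, 8.62, 8.91 and 8.49, then 8.78, 8.50, 8.46 and 8.19. In all 3 genes replicate 2 of the *Tbx1 LOF* controls was the highest control, replicate 3 was the highest of the *β-cat LOF* controls, and replicate 1 of the rescue controls. *Hoxd1* completed the 6 with the smallest p (0.157), and its 12 control values lay within 7.19 to 7.54.

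In *Tbx1 LOF* no Hox gene differed from controls beyond the adjusted threshold, and fold changes were small. The median log2 fold change of the 37 members was -0.01, equal to that of all genes (-0.01), and single members spanned -0.27 to 0.17. At an unadjusted p under 0.05, 0 members were higher against 2.17% of all genes, and 2 were lower against 1.95%. None had its 4 mutant arrays all above or all below its 4 controls, which 1.32% and 0.973% of all genes did. Across all members the 95% interval of a fold change lay 0.14 to 0.42 to either side of the estimate, and smaller changes were not detectable.

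The 2 lower members were *Hoxd3* and *Hoxa2*, both active in the pharyngeal arches. *Hoxd3* read 8.61, 9.27, 8.98 and 8.94 in *Tbx1 LOF* against 9.40, 9.53, 9.02 and 8.92 in controls, a log2 fold change of -0.27 with an interval of -0.53 to -0.01 and an unadjusted limma p of 0.0421. The groups overlapped, since replicates 2, 3 and 4 of *Tbx1 LOF* exceeded the lowest control, and the two-sided exact permutation test gave p = 0.200. *Hoxa2* read 10.09, 10.46, 10.18 and 10.20 against 10.63, 10.42, 10.34 and 10.34, a log2 fold change of -0.20 (SE 0.0953, unadjusted limma p = 0.0482, exact permutation p = 0.114). A single mutant array, replicate 2, lay inside the control range. Without the 3 arrays that stand apart (described further on), neither gene was under 0.05, and *Hoxc6* (0.17) and *Hoxc12* (0.14) were higher at that level. Leaving out *Tbx1 LOF* replicate 1, 3 or 4 or control replicate 1 or 2 also left both genes above 0.05. By paralogue group, all 7 genes of groups 1 to 3 had a negative fold change (-0.27 to -0.03, median -0.05), where 11702 of 19938 genes did. Groups 4 to 8 had 10 positive and 4 negative fold changes and groups 9 to 13 had 7 and 9. Cluster C had 8 of 9 positive and clusters B and D 2 of 9 each.

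Genes that act with or on Hox genes were mostly within the spread too. Of 8 measured cofactors (Pbx, Meis and Pknox genes, whose products bind DNA beside Hox proteins), *Pknox2* was lower (-0.24) and the others did not pass an unadjusted p of 0.05. Of 13 upstream regulators and axial patterning genes, *Gbx2*, a gene of the anterior hindbrain, was lower (-0.24). Of 18 measured retinoic acid genes, *Rbp4*, a retinol carrier, was higher (0.91), and *Cyp26c1*, which breaks retinoic acid down, and *Rxrg*, a receptor, were lower (-0.51 and -0.45). Of 13 genes of the posterior SHF and inflow, 8 were higher and 1 lower, with *Sfrp5* at 1.02, *Gata4* at 0.85 and *Wnt2* at 0.77. None of these had an adjusted p under 0.05. Among 12 AHF genes *Hand2* was higher and *Tbx1*, *Fgf10*, *Eya1* and *Six2* were lower, of which *Tbx1* alone passed the adjusted test.

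Markers of neighbouring tissues moved in the same comparison, and fewer cells of a type and less RNA per cell cannot be told apart in such tissue. Of 10 heart tube markers 7 were higher, with list scores of 0.26 to 0.52 in *Tbx1 LOF* and -0.61 to -0.07 in controls. Of 10 liver, gut and mesothelium markers 6 were higher, and of 12 somite markers 6 were lower, with scores of -0.33 to 0.05 against -0.04 to 0.37. Of 16 neural tube markers 4 were lower, of 14 neural crest markers 2 were lower and 1 higher, of 11 pharyngeal endoderm markers 2 were higher and 1 lower, and of 9 limb and body wall markers 3 were higher and 1 lower. None of the 8 endothelial markers was under 0.05. All of these calls are at an unadjusted p under 0.05, and their part in the Hox values was not tested.

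Of the 3 comparisons, *β-cat LOF* had the most Hox genes at an unadjusted p under 0.05, with small fold changes that rested largely on 1 array. The median log2 fold change of the members was 0.12, against 0.01 over all genes and 0.06 over the olfactory receptor genes, and 29 of 37 were positive. No member passed at an adjusted p under 0.05. At an unadjusted p under 0.05, 7 members were higher, against 2.83% of all genes: *Hoxa6*, *Hoxa7*, *Hoxa9*, *Hoxa10*, *Hoxc9*, *Hoxd11* and *Hoxd13*, with log2 fold changes from 0.18 to 0.26. *Hoxa5* was the 1 lower member, against 2.88%. Without replicate 4 of *β-cat LOF* none of the 37 was under 0.05 in either direction, and the median fold change was 0.04.

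*Hoxa7*, a gene of the thoracic trunk, was the single member whose 4 mutant arrays all lay above their 4 controls, as 2.06% of all genes did, and no member lay wholly below, as 0.787% did. It read 7.46, 7.56, 7.54 and 7.88 in *β-cat LOF* against 7.38, 7.34, 7.36 and 7.45 in controls. The groups are parted by 0.01 between the lowest mutant and the highest control, and replicate 4 is well above the rest. The log2 fold change was 0.23 with an interval of 0.04 to 0.42 (limma adjusted p = 0.832), and the two-sided exact permutation test gave 0.0286, the smallest p that 4 arrays against 4 allow. Without replicate 4 it was 0.14 (unadjusted p = 0.111).

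*Hoxa5* read 8.55, 8.43, 8.09 and 8.01 in *β-cat LOF* against 8.66, 8.50, 9.01 and 8.60 in controls, a log2 fold change of -0.42 (interval -0.78 to -0.06, unadjusted limma p = 0.0246, exact permutation p = 0.0571). The groups overlapped by 1 array, and the unadjusted p was above 0.05 without *β-cat LOF* replicate 3 (-0.36) or 4 (-0.33) or control replicate 3 (-0.31). With all 3 arrays that stand apart left out, the difference of -0.33 had an unadjusted p of 0.0212. The direction of the fold changes differed by paralogue number. In groups 4 and 5, 6 of the 7 genes were negative, with all 3 of group 5 from -0.42 to -0.11. In groups 6 to 8 all 7 were positive, and in groups 9 to 13, 15 of 16 were, with a median of 0.21. Without replicate 4 of *β-cat LOF* the median of groups 9 to 13 was 0.05, while those of groups 4 and 5 were -0.09 and -0.13. Those of groups 6, 7 and 8 were then 0.05, 0.07 and -0.05, so group 8 did not stay positive.

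**Figure D2:**
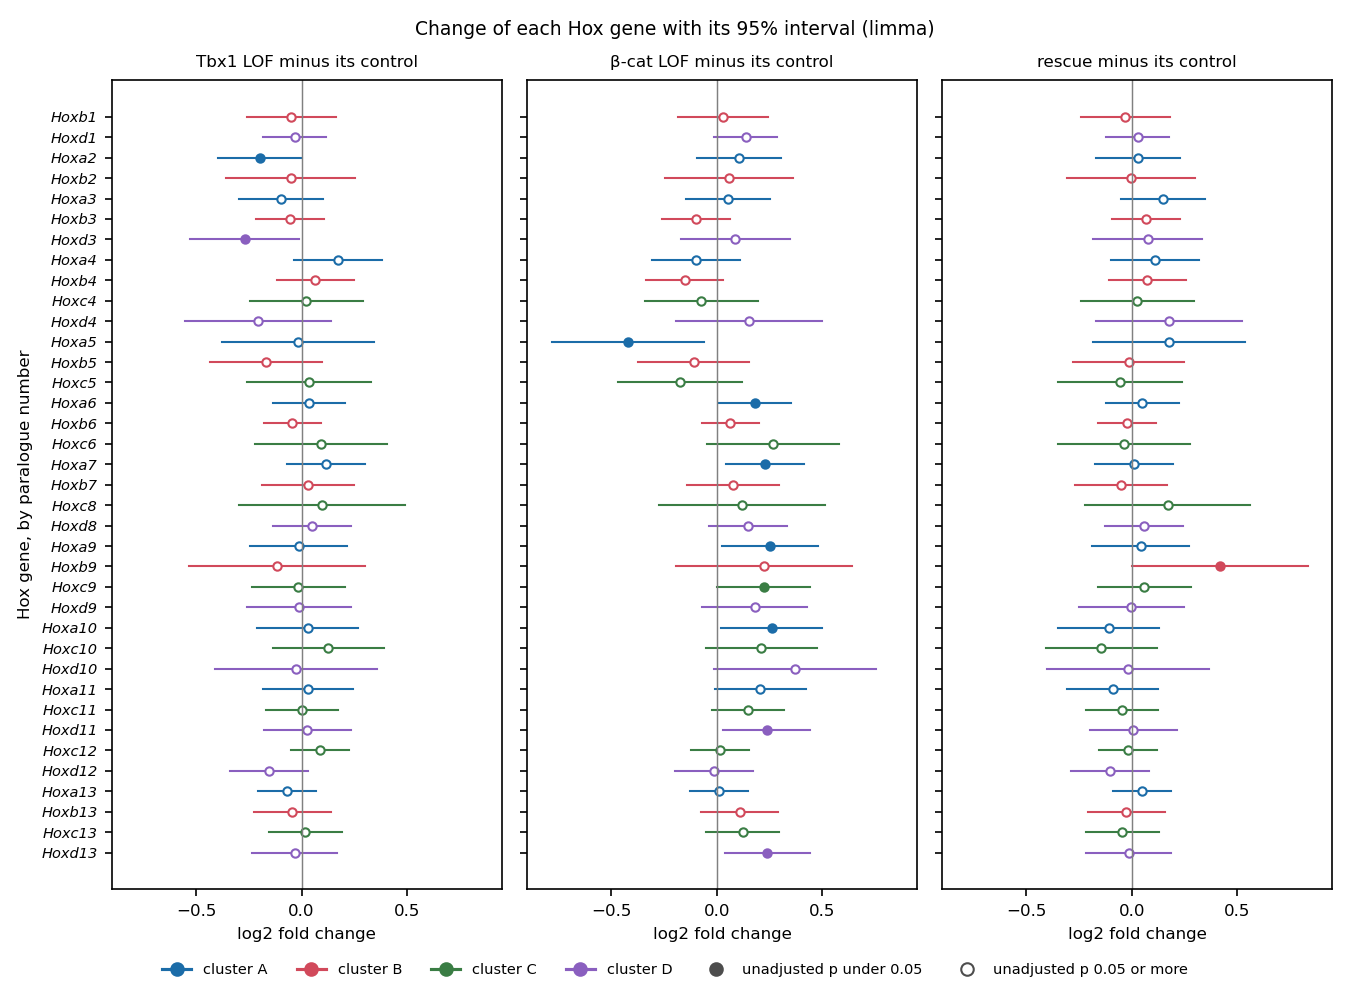
Log2 fold change of each Hox gene, mutant minus its own control, in *Tbx1 LOF*, *β-cat LOF* and rescue, with 95% intervals from limma and genes ordered by paralogue number. In *β-cat LOF* 15 of the 16 genes of groups 9 to 13 lie right of 0 and the 3 genes of group 5 left of it, and most intervals in each panel cross 0.

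Other genes of the axial system were counted the same way in *β-cat LOF*. Of 13 upstream regulators 3 were higher (*Otx2*, a forebrain and midbrain gene, by 0.44, *Nr6a1*, a trunk regulator, by 0.26, and *Evx2*, the neighbour of the D cluster, by 0.19), and the list's median was 0.18. Of 18 retinoic acid genes *Cyp26b1*, a degrading enzyme, was higher (0.22) and *Aldh1a1*, a synthesising enzyme, lower (-0.49), and none of the 8 cofactors was under 0.05. Of 13 posterior SHF genes 4 were lower, *Tbx5* (-0.81), *Shox2* (-0.60), *Gata4* (-0.59) and *Wnt2* (-0.51), and of 12 AHF genes *Isl1* was higher (0.16).

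Among the markers, 9 of 10 for the heart tube were lower, from *Nppa* at -2.68 to *Actc1* at -0.59. For the neural tube 5 of 16 were higher, *Olig2* (0.69), *Pax6* (0.49), *Sox2* (0.28), *Nkx2-2* (0.26) and *Sox3* (0.18), and the list's score was -0.03 to 0.12 in *β-cat LOF* and -0.27 to -0.15 in controls, without overlap. For the somites *Lfng* (0.31) and *Pax1* (0.18) were higher of 12, with scores of -0.07 to 0.08 and -0.22 to -0.06. *Pecam1*, *Cdh5*, *Tek*, *Tie1* and *Emcn*, 5 of 8 endothelial markers, were lower by 0.14 to 0.37. In the remaining lists *Sox10* was higher and *Alx1* lower of 14 neural crest markers, *Cdh1* higher of 11 for endoderm, *Tbx5* lower of 9 for limb and body wall, and *Trf* lower of 10 for liver, gut and mesothelium. No gene of these lists had an adjusted p under 0.05, and their part in the Hox differences was not tested.

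In rescue the Hox genes lay about as near to their controls as in *Tbx1 LOF*, with a median log2 fold change of 0.01 against -0.02 over all genes, 19 positive and 18 negative. No member passed at an adjusted p under 0.05. At an unadjusted p under 0.05, 1 member was higher, against 0.371% of all genes, and 0 were lower, against 0.898%. No member had its groups apart, which 0.737% of all genes had upward and 2.24% downward. The higher one was *Hoxb9*, a gene of the thoracic trunk, which read 9.68, 8.26, 8.45 and 8.48 in rescue against 8.19, 8.35, 8.39 and 8.27 in controls. Its log2 fold change of 0.42 (SE 0.202, unadjusted limma p = 0.0494, exact permutation p = 0.143) came from replicate 1, and without that array it was 0.10 (unadjusted p = 0.454). Its unadjusted p was also above 0.05 without any single one of the 4 controls. Without the 3 arrays that stand apart the counts were 1 higher, *Hoxa5* (0.29), and 2 lower, *Hoxc6* (-0.17) and *Hoxc10* (-0.18), all above 0.05 when no array was left out. The other members spanned -0.15 to 0.18.

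None of the 8 cofactors or the 13 upstream regulators was under an unadjusted p of 0.05 in rescue. *Rxrg* was lower (-0.36) of the 18 retinoic acid genes, *Nr2f1* (0.20) and *Nr2f2* (0.14) were higher of the 13 posterior SHF genes, and *Tbx1* (-0.31) and *Fgf10* (-0.47) were lower of the 12 AHF genes. Among the marker lists only *Fgf10*, which is also counted for limb and body wall, and *Foxa2* of the endoderm list (0.21) were under 0.05.

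The changes were also compared with each other. Between *Tbx1 LOF* and *β-cat LOF*, 1 member differed at an unadjusted p under 0.05, against 6.44% of all genes. That was *Hoxa2*, whose change in *Tbx1 LOF* was lower by -0.30 (interval -0.58 to -0.03, limma adjusted p = 0.687). With the replicate number as a block 4 did, *Hoxa2*, *Hoxa9*, *Hoxd3* and *Hoxd4*, and shares of all genes with that block are not given here. Between *Tbx1 LOF* and rescue, 0 members differed at that level, against 1.71% of all genes, and with the block 2 did, *Hoxd3* (-0.34) and *Hoxd4* (-0.38). Thus the number of members with a difference in 1 mutant and not in another does not show that the mutants differ.

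Some single arrays departed far from the others of their group, and those described here were picked after values were seen. A single array varies more than a group mean, so these departures are not weighed against the fold changes. Replicate 4 of *β-cat LOF* was the highest of all 24 arrays for 17 Hox genes, and the share of all genes is not given here. On it 21 members lay more than 0.25 above the mean of the other 3 arrays of its group, as 15.1% of all genes did. *Hoxd10*, a gene of the lumbar and limb region, read 7.33, 7.46, 7.51 and 8.74 in *β-cat LOF*, and its last value is above the range of the other 23 arrays (7.22 to 7.73). The departure of 1.31 was the second largest upward among 19938 genes on that array. *Hoxc8* read 7.02, 6.99, 6.90 and 7.93 (departure 0.96), and *Hoxc6*, *Hoxc10* and *Hoxd9* departed by 0.86, 0.80 and 0.73. All 5 are trunk genes, and they ranked 2, 8, 12, 17 and 30 by departure, in the order *Hoxd10*, *Hoxc8*, *Hoxc6*, *Hoxc10* and *Hoxd9*.

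The same array was high for regulators of the posterior trunk. *Cdx4*, which activates trunk Hox genes, read 6.10 there and 4.79 to 5.26 on the other 23 arrays. Its values were under the 7.28 limit of the receptor genes on every array, and on the other 23 under their median of 5.53. *Cdx2* read 7.89 against 7.12 to 7.55. *Cdx1* was at 9.11 against 8.38 to 8.96, *Evx1* at 7.83 against 7.11 to 7.55, and *Tbx6*, a gene of presomitic mesoderm, at 8.65 against 7.87 to 8.37. Each of these 5 was outside the range of every other array. It was low for *Aldh1a2* (8.93 against 9.30 to 11.64) and for *Tbx5* (9.03 against 9.87 to 11.33), which mark the inflow region. The olfactory receptor genes were raised on it as well, with a mean 0.15 above the group mean, against 0.38 for Hox groups 9 to 13 and 0.37 for groups 6 to 8. Groups 1 to 3 were at 0.03 and groups 4 and 5 at -0.02. The part of this array's tissue or of its low-value probe sets in the Hox differences was not tested.

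Replicate 2 of the *Tbx1 LOF* controls had 11 Hox genes more than 0.25 above the mean of the other 3 arrays of its group, where 3.67% of all genes were. It was the highest of the 24 arrays for 10 Hox genes (the share of all genes is not given here). Of these, 5 belong to groups 4 and 5 (*Hoxa5*, *Hoxb4*, *Hoxb5*, *Hoxc4* and *Hoxc5*), and the others were *Hoxb1*, *Hoxb6*, *Hoxd1*, *Hoxd3* and *Hoxd12*. Relative to the other 3 arrays of its group *Hoxa5* was higher by 0.85, *Hoxc4* by 0.65, *Hoxc5* by 0.64, *Hoxd4* by 0.53, *Hoxb5* by 0.52 and *Hoxb4* by 0.34. On that array *Aldh1a2*, the enzyme that makes retinoic acid, read 11.64 against 8.93 to 11.19 on the other 23, and *Uncx*, a somite gene, read 9.19 against 8.14 to 8.59. *Meox2*, another somite gene, read 10.03 against 7.81 to 9.72. The largest upward departures of all genes there were *Itih2* (1.58) and, from the liver, gut and mesothelium list, *Afp* (1.38). *Cdx4* read 4.94 there, under the median of the receptor genes (5.53). Unlike replicate 4 of *β-cat LOF*, the array had the mean of its receptor genes near the group mean (-0.02).

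Replicate 1 of rescue departed in 3 trunk genes, *Hoxb9* (9.68, departure 1.28), *Hoxc8* (7.99, 0.92) and *Hoxc6* (6.78, 0.54), and in the opposite direction in group 5, with *Hoxb5* at 7.72, the lowest of 24 arrays, and *Hoxa5* at 8.15. *Hoxc8* and *Hoxc6* were thus high on this array and on replicate 4 of *β-cat LOF*, whereas *Hoxb9* at 8.91 on the latter was second to it. *Cdx4* was at 4.96 on the rescue array, against 5.01 to 5.08 in the other 3 of its group. All these *Cdx4* values are under the median of the receptor genes (5.53). The inflow genes *Tbx18* (8.79) and *Shox2* (7.03) were each the lowest of 24 arrays there, and *Aldh1a2* was at 9.76 against 10.31 to 10.52 in the other 3 of its group.

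**Figure D3:**
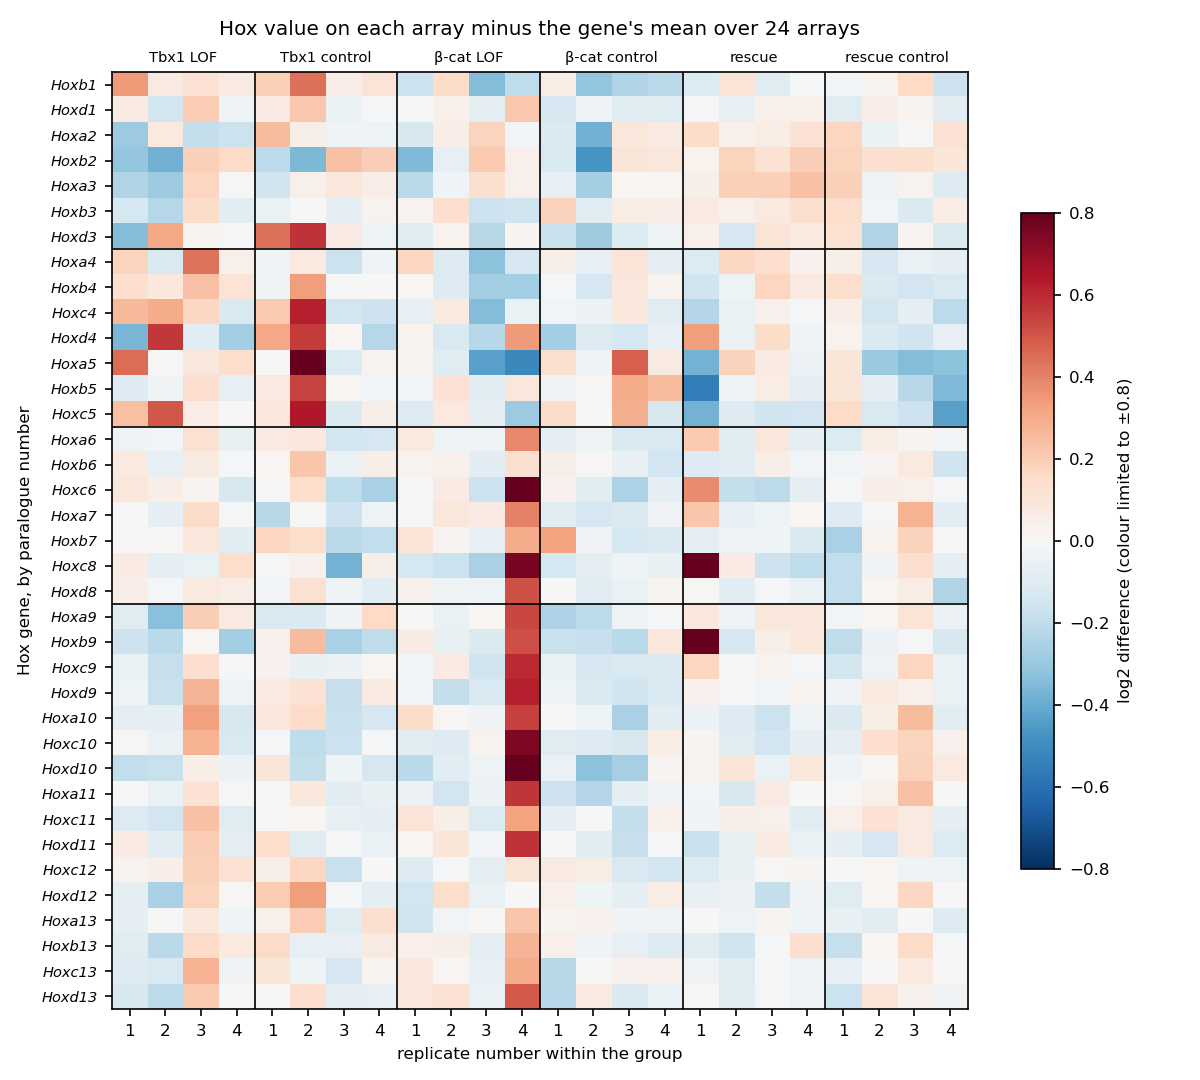
Value of each Hox gene on each of the 24 arrays minus the gene's mean over all arrays (log2), with genes by paralogue number and arrays by group. Replicate 4 of *β-cat LOF* is high from group 6 onward, replicate 2 of the *Tbx1 LOF* controls is high in most genes of groups 4 and 5, and replicate 1 of rescue is high in *Hoxb9*, *Hoxc8* and *Hoxc6*.

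Because arrays departed by paralogue number, the members were correlated over the 24 arrays after each group's mean was removed. Arrays share a hybridization and a dissection across genes, so these values describe the libraries and carry no p-value. Over all 666 pairs the median Pearson r was 0.29. In what follows, the value in parentheses is that without the 3 arrays that stand apart, over 21 arrays. The median was 0.58 (0.43) in the 38 pairs of the same paralogue group, and 0.29 (0.22) for genes of the same cluster against 0.30 (0.25) for genes of different clusters. Within groups 4 and 5 the 3 pairs of the same cluster had a median of 0.78 (0.66) and the 18 pairs of different clusters 0.56 (0.39). All 6 pairs of *Hoxd4*, with a median of 0.20 (0.21), fall among the 18, since no other gene of groups 4 and 5 lies in cluster D. Whether the cluster matters apart from *Hoxd4* was not tested. Groups 4 and 5 had a median r of 0.61 (0.41) over all their 21 pairs. Without *Hoxd4*, a gene set aside for its low r, it was 0.67 (0.45) over 15 pairs. Groups 6 to 8 had 0.61 among themselves (0.36) and groups 9 to 13 had 0.60 (0.51), with 0.54 (0.38) between these sets.

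Between groups 4 and 5 on one side and groups 9 to 13 on the other the median was 0.03 (-0.01), and with groups 6 to 8 it was -0.00 (-0.01). *Hoxd4* was the exception within its own group, with a median r of 0.20 (0.21) to the other genes of groups 4 and 5, and 0.79 (0.78) to *Hoxd3*, its neighbour in cluster D. *Hoxd3* and *Hoxd4* are the 2 genes whose windows held both AGGTCA and TTTATG, as overlapping matches in *Hoxd3*. A link between the windows and the correlation was not tested. In the low paralogues *Hoxa3* and *Hoxb2* were correlated by 0.82 (0.92) and *Hoxa2* and *Hoxd3* by 0.58 (0.68), while the median of all 21 pairs in groups 1 to 3 was 0.16 (0.11). *Hoxd1*, whose values lay nearest the limit of the receptor genes among these 7, instead varied with the high paralogues and reached 0.86 (0.83) with *Hoxd13*, at the other end of cluster D. The highest pair of all was *Hoxa11* and *Hoxd8*, at 0.90 (0.65), both under the limit of the receptor genes.

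**Figure D4:**
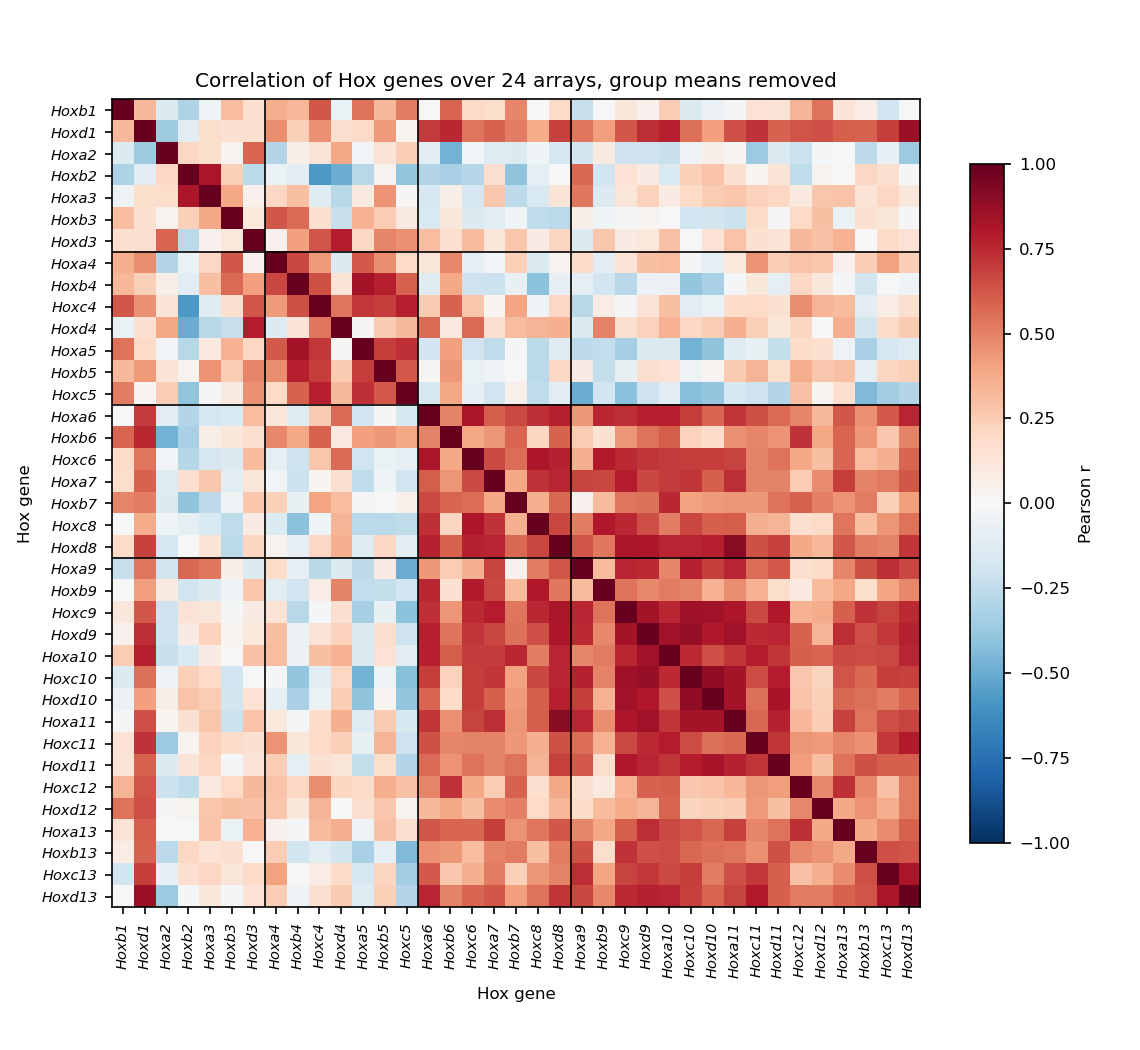
Pearson correlation of each pair of Hox genes over 24 arrays with group means removed, genes ordered by paralogue number. A block of groups 4 and 5 (median 0.61, or 0.67 without *Hoxd4*) stands beside a wider block from group 6 to 13. Medians between the blocks lie near 0, while single pairs run from -0.50 to 0.59.

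Low values can move together without specific RNA, so each set of Hox genes was set beside the mean of the 1015 olfactory receptor genes on the same arrays. The mean of groups 9 to 13 followed it with r = 0.88 over 24 arrays (0.83 without replicate 4 of *β-cat LOF*), and that of groups 6 to 8 with r = 0.68 (0.52). Groups 4 and 5 had r = -0.12 and groups 1 to 3 had r = 0.33. The mean of groups 9 to 13 thus varied with that of the receptor genes and the mean of groups 4 and 5 did not. The cause of either was not tested. Single genes ranged from 0.36 (*Hoxb9*) to 0.84 within groups 9 to 13, and *Hoxd1* had 0.68. Replicate 4 of *β-cat LOF* deviated by 0.38 in groups 9 to 13 for 0.15 in the receptor genes, the largest of the 24 arrays in both sets. Replicate 3 of *Tbx1 LOF* deviated by 0.20 and 0.11, with 12 Hox genes more than 0.25 above the rest of its group, where 16.8% of all genes were.

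**Figure D5:**
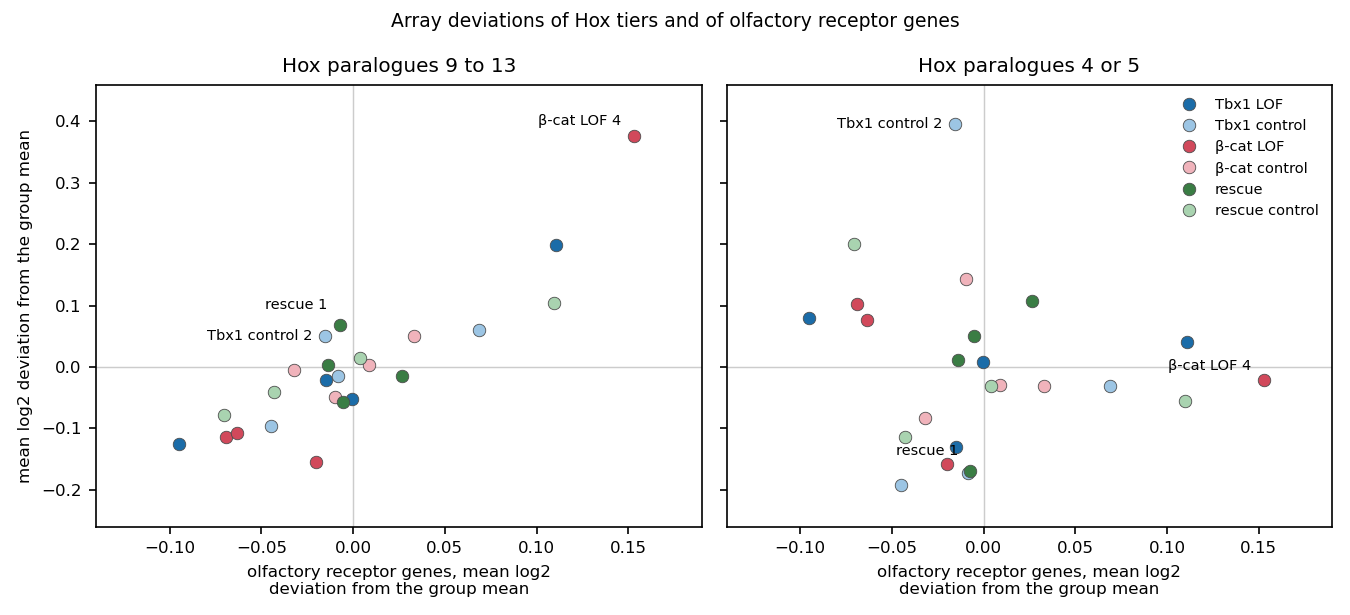
Mean deviation from the group mean on each of the 24 arrays for Hox sets by paralogue number (vertical axis, log2) against that of the 1015 olfactory receptor genes (horizontal axis, log2). Groups 9 to 13 rise with the receptor genes (r = 0.88) and groups 4 and 5 do not (r = -0.12).

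Scores of the other lists were set against the Hox sets over the same 24 arrays. Values without the 3 arrays that stand apart are again in parentheses. Groups 4 and 5 went with the retinoic acid list at r = 0.72 (0.75), the posterior SHF list at 0.57 (0.44), the somite list at 0.57 (0.43) and the cofactors at 0.54 (0.51). Within replicates 1 and 2 and within 3 and 4 the retinoic acid value was 0.36 and the cofactor value 0.15, so these fell once that division was removed. Groups 9 to 13 went with the upstream regulators, the list that holds the Cdx genes, at 0.71 (0.51), and 0.77 within the divisions. They went against the endothelial markers at -0.52 (-0.36), or -0.72 within the divisions, and so did groups 6 to 8 at -0.41 (-0.14), or -0.77. The endothelial score was lowest of the 24 arrays on replicate 4 of *β-cat LOF* (-0.19). Within the divisions the cofactors had -0.51 with groups 9 to 13 and -0.54 with groups 6 to 8. The part of endothelial content in the Hox values was not tested. Groups 1 to 3 went with neural crest and arch mesenchyme markers at 0.70 (0.85) and against heart tube markers at -0.60 (-0.63) and liver, gut and mesothelium markers at -0.58 (-0.76). The neural tube list had values of 0.03 to 0.07 with all 4 sets.

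The genes outside the clusters whose deviations were most like the mean of groups 4 to 8 were *Klk1b24* (r = 0.81), *Krt26* (0.79), *Arhgap24*, *Clnk*, *Igfbp1* and *Clec2i* (0.77 each), *B3galt5*, *Uncx* and *Tmem196* (0.76 each) and *6820408C15Rik* (0.75), over 24 arrays. Mean log2 values of these 10 ran from 6.13 to 8.38. They were picked as the highest of all genes, and their r describes the choice.

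Replicates 1 and 2 were also compared with 3 and 4 in each experiment, since a split along these numbers ran through the table: in the *Tbx1* experiment 25.5% of all genes had their 4 arrays numbered 1 or 2 entirely above or below the 4 numbered 3 or 4, in the *β-cat* experiment 14.6%, and in the rescue experiment 3.43%. Of the 37 Hox genes 4, 2 and 0 did. In the *Tbx1* experiment *Hoxb2* was lower in replicates 1 and 2 by -0.51 and *Hoxa9* by -0.27, and *Hoxc4* and *Hoxc5* were higher by 0.42 and 0.37. *Hoxb2* read 11.22, 11.15, 11.73 and 11.68 in *Tbx1 LOF* and 11.32, 11.17, 11.77 and 11.73 in its controls, so that the number parted its arrays and the genotype did not. In the *β-cat* experiment *Hoxb2* (-0.36) and *Hoxa3* (-0.20) were lower in replicates 1 and 2. What the numbers stand for was not stated.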

How the data were processed

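AHF tissue of 24 pools of embryos was profiled on Affymetrix mouse Gene ST arrays, 4 per group in 6 groups. The log2 values deposited by the authors come from RMA, run with oligo: background correction, quantile normalization, then summarization per probe set. Neither a version of oligo nor a genome build is given in the sources used here. The methods add ComBat and a block for batch, but which array belongs to which batch is not stated, so neither was repeated, and whether the values include ComBat is not stated. Groups were taken from the labels.

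Of 35556 probe sets, 21789 name 1 gene symbol and were averaged per gene, which gave 19938 genes, of which 19856 matched the reference gene table. The 1621 that name several symbols and the 12146 that name none were not used. Values ran from 3.62 to 14.56. Differences were tested with limma (version 3.58.1, under R 4.3.3) on 6 group means fitted together, each mutant group against the controls of its experiment, with Benjamini-Hochberg adjustment over all genes, and control groups with limma's F-test. Exact permutation tests were two-sided, with a smallest possible p of 0.0286. The script was tested on simulated data. The number of arrays limits the precision. A value is a level on the array's log2 scale, a fold change a difference of means on that scale.

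The members, the gene lists and the tests were chosen with earlier results of these data known. Values were given in full for Hox genes at an adjusted p under 0.05, or with 4 mutant arrays beyond 4 controls at an unadjusted p under 0.05, and for the 6 with the smallest F-test p. *Hoxd3* and *Hoxa5* were also followed in a mutant comparison, and *Hoxa2*, *Hoxb2*, *Hoxb9*, *Hoxc8* and *Hoxd10* were chosen after their values were seen. List members were named at an unadjusted p under 0.05, and the 10 most alike genes by correlation. Members of the lists without a probe set of 1 symbol were not analysed here.

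Replicate numbers recur in the mutant and the control group of each experiment. In the *Tbx1* experiment the 4 same-numbered pairs had correlated deviations from their group means (r from 0.157 to 0.494). The main tests did not pair the arrays. The numbers were taken as pairs only in an alternative, the block by replicate number. This pairing was found in the data, is uncertain and is not stated by the labels. Within replicates 1 and 2 and within 3 and 4 of that experiment the same-number r was -0.174 and -0.183, and only replicate 4 was closest to its own number. Some pairs were under 0.1 in the other experiments.

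Alternatives were the probe set with the highest mean, centring, repeated quantile normalization, a filter on low values (14953 genes, 31 of them Hox), eBayes with trend and robust, array weights, only the arrays compared, blocks by replicate number or by replicates 1 and 2 against 3 and 4, leaving out each array, and leaving out 3 arrays, the last chosen after seeing the data. Promoter windows came from RefSeq on GRCm38.p6. Python 3.11.15 with matplotlib 3.10.9 drew the figures.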

Additional observations from a re-analysis of the deposited data

Results flagged for a closer look

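In 21 of 222 groups of 4 values of a Hox gene (9.46%), 1 array lay far from the other 3 by Dixon's test at the 95% level, 16 on the high side and 5 on the low side. Chance marks about 1 group in 20 where values are normal and independent. The share over all genes on these arrays is not given here, so the count does not show that Hox genes stand out. Genes of 1 array share its RNA, so these are not 21 separate events.

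Replicate 4 of *β-cat LOF* held 6 of them, all high, at 8.74 for *Hoxd10*, 7.93 for *Hoxc8*, 7.80 for *Hoxa9*, 7.59 for *Hoxc10*, 7.31 for *Hoxa11* and 6.79 for *Hoxd8*. Replicate 2 of the *Tbx1 LOF* controls was high for *Hoxb4* (9.40) and *Hoxa5* (9.35), and replicate 3 of the same group was low for *Hoxd9* (7.19) and *Hoxc8* (6.79). Replicate 3 of *Tbx1 LOF* was high for *Hoxa10* (7.45) and *Hoxc11* (6.74). Replicate 1 of rescue was high for *Hoxb9* (9.68), replicate 2 low for *Hoxa9* (7.22) and replicate 3 low for *Hoxd12* (6.80).

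Among the other controls, replicate 1 of rescue was high for *Hoxb4* (9.21) and *Hoxa5* (8.63), and replicate 3 of rescue was high for *Hoxa11* (6.97). Replicate 4 of the *β-cat LOF* controls was high for *Hoxb9* (8.49) and *Hoxc10* (6.90), and replicate 1 low for *Hoxc13* (6.83).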

How the results depend on the processing

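No Hox gene had an adjusted p under 0.05 in any mutant comparison or between control groups under any alternative run, and no member called at an unadjusted p under 0.05 changed sign. The median over the members did cross 0 in *Tbx1 LOF* (-0.07 to 0.04) and in rescue (-0.01 to 0.04). The counts at an unadjusted p under 0.05 did change, and the cause was not tested. In *Tbx1 LOF* the 2 lower members became 1 with quantile normalization repeated and 0 with array weights, with only the arrays compared or without the 3 arrays that stand apart, and 0 to 3 leaving out single arrays. The 0 higher members became 2 without those 3 arrays and 0 to 1 leaving out single arrays. In *β-cat LOF* the 7 higher members became 3 with array weights, 1 with only the arrays compared, 0 without the 3 arrays and 0 to 13 leaving out single arrays, of which replicate 4 of *β-cat LOF* gave 0, replicate 3 gave 13, and control replicates 1 and 3 gave 3 each. The 1 lower member became 0 with the replicate number as a block, and 0 to 2 leaving out single arrays. In rescue the 1 higher member became 0 with centring, quantile normalization repeated, the filter on low values, eBayes with trend and robust, only the arrays compared, or replicates 1 and 2 against 3 and 4 as a block, and 0 to 1 leaving out single arrays, and with array weights the 1 was *Hoxa3* (0.20) in place of *Hoxb9*. The 0 lower members became 1 with only the arrays compared and 2 without the 3 arrays. For the difference between *Tbx1 LOF* and *β-cat LOF* the 1 member became 2 with centring, with quantile normalization repeated, with the block of replicates 1 and 2 and without the 3 arrays, 0 with only the arrays compared, 4 with the replicate block and 0 to 5 leaving out single arrays. For that between *Tbx1 LOF* and rescue the 0 members became 1 with array weights, with only the arrays compared and with the block of replicates 1 and 2, 2 with the replicate block and without the 3 arrays, and 0 to 3 leaving out single arrays. With the replicate block, pairing taken from the numbers, *Hoxa5*, *Hoxa6* and *Hoxc9* in *β-cat LOF* were no longer under 0.05. *Hoxa11*, *Hoxc11* and *Hoxd10* were newly so, and 8 were higher. Of all 19938 genes 1788 were then under 0.05 in *β-cat LOF* in either direction, against 565 higher and 575 lower without the block. With it, the table had 0, 2 and 0 genes at an adjusted p under 0.05 in *Tbx1 LOF*, *β-cat LOF* and rescue. With replicates 1 and 2 against 3 and 4 as the block these numbers were 10, 0 and 0. Taking the probe set with the highest mean changed no Hox value, since each gene has 1. Values near those of the olfactory receptor genes limit what most members of groups 6 to 13 can show.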
